A study of Bos taurus with 30 samples.

Results

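Corpora lutea collected 24 h after an injection of prostaglandin F2α (PGF2α) on day 11 of the estrous cycle were compared with corpora lutea collected 24 h after the same injection on day 4. The comparison used 10 of the 30 arrays of the study, 5 per day, chosen by their labels alone, and covered the 24016 probe sets of the array that are not controls. All 30 samples came from Angus crossbred heifers, 1 animal to an array, and the other 20 arrays were glands of the same days taken 4 h after PGF2α or at 0 h, when saline had been given. The platform was Affymetrix's bovine expression array, and signals are given as deposited, on a log2 scale. The question was how a mature gland and an early gland differed a day after the same hormone, and which of those differences were already present in the glands given saline.

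The corpus luteum forms from the ruptured follicle, takes up and makes cholesterol, and turns it into progesterone under the support of luteinizing hormone. PGF2α from the uterus ends the life of a mature gland: progesterone secretion falls, capillaries are lost, leukocytes enter and the tissue is broken down. An early bovine gland, a few days after ovulation, keeps secreting progesterone after the same dose, although its cells already carry the PGF2α receptor. The files hold no progesterone or tissue measurements, so whether each of the 10 glands was regressing was not measured here. The defining genes of the labelled tissue were measured at high levels: STAR, CYP11A1, HSD3B1 and OXT had signals above 10 in each of the 10 arrays.

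Array medians of all 30 arrays lay between 6.01 and 6.16, and 6 measures of RNA and array quality gave adjusted p values of 0.75 or above between the days (exact two-sided permutation tests). The values had already been normalized, so near-equal medians do not show equal quality. The largest of the 6 differences was 0.37, in the hybridization controls (exact two-sided permutation p = 0.16 before adjustment). With 5 arrays per day, their number set the precision of the values below. Within a day, arrays correlated at 0.985 to 0.992 on day 11 and 0.979 to 0.994 on day 4. The arrays of day 11 lay at root mean square distances of 0.25 to 0.34 log2 units from their own group mean and of 0.58 to 0.65 from the day 4, 24 h mean. Day 4 replicate 1 lay nearer the mean of the day 4 glands given saline (0.25) than its own group mean (0.34), and day 4 replicate 5 lay about as near to both (0.26 and 0.25). Day 4 replicate 4 lay farthest from its group mean, at 0.35. On day 11 it was replicate 1, at 0.34. Results that rest on these arrays are given with the values of each array. A total of 533 of 9155 genes had an SD above 0.5 between the day 4 arrays, against 324 between the day 11 arrays.

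At 24 h the days differed for a large share of the array. In the limma fit over all 30 arrays, 8342 of 24016 probe sets passed an adjusted p under 0.05 (34.7%), 3825 higher on day 11 (15.9%) and 4517 lower (18.8%). Of the 9155 genes with a named probe set, 4226 passed (46.2%), 1721 higher (18.8%) and 2505 lower (27.4%). The 5 values of each day did not overlap for 3255 genes (35.6%) and for 6136 probe sets (25.5%). Large differences were more often upward: 512 of the called genes were over 2-fold higher on day 11 and 388 over 2-fold lower. The median difference over genes was -0.04. In the glands given saline (0 h), 17.9% of genes were higher on day 11 and 26.5% lower. By the interaction test, the difference at 24 h lay above that at 0 h for 14.8% of genes and below it for 15%. These shares are the background for every gene group below, where "higher" and "lower" mean day 11 relative to day 4. A gene with several probe sets is represented by the one with the highest mean signal over the 30 arrays, and a signal below 4.50, the 30th percentile of probe set means, is called low. A difference from a low signal is uncertain in size.

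**Figure D1:**
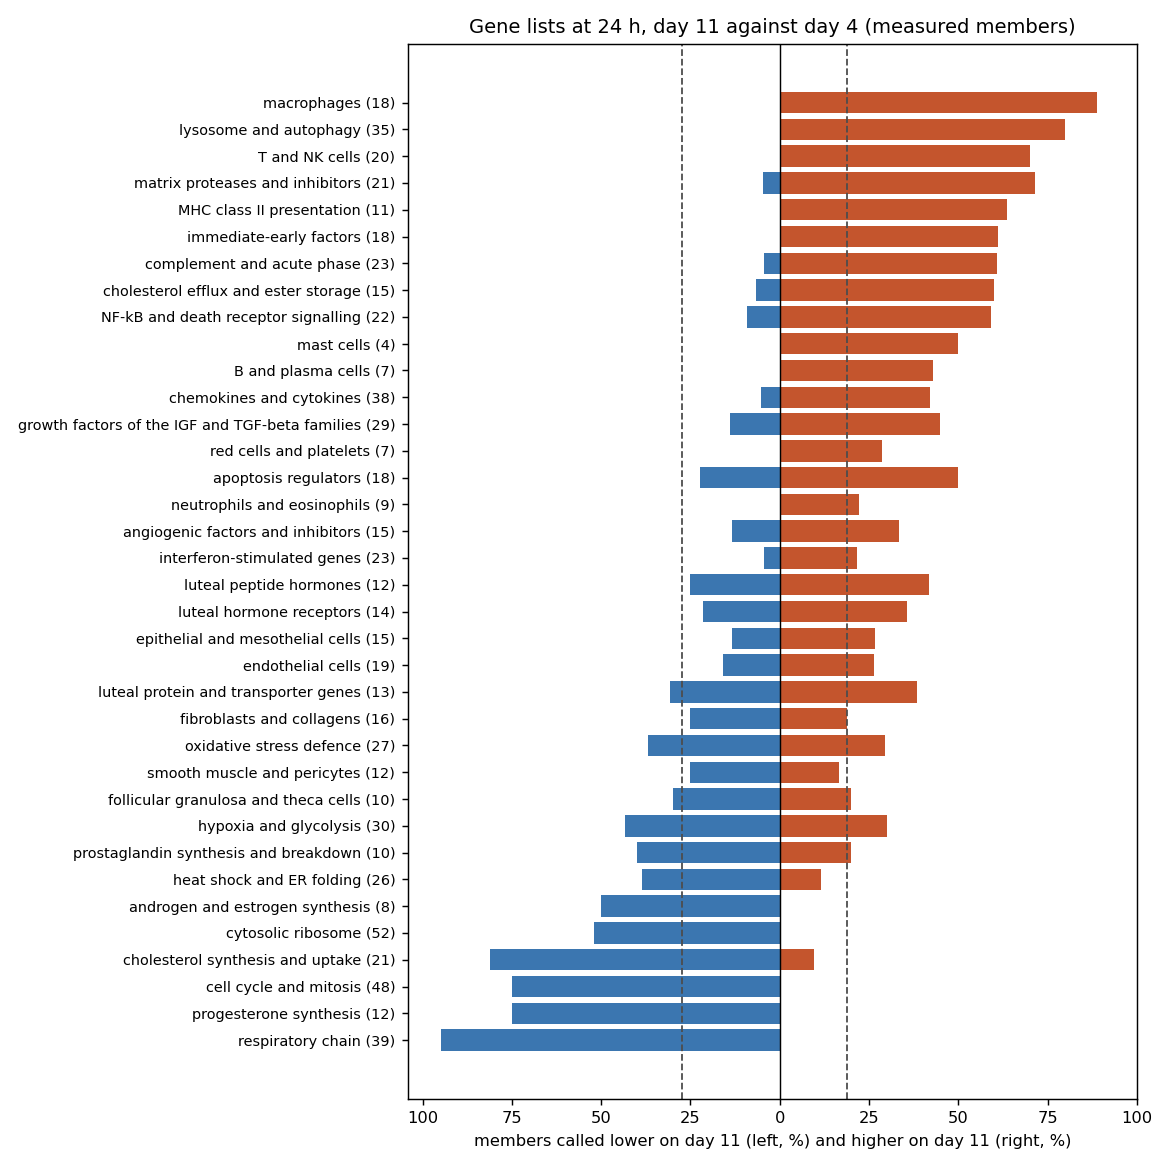
Share of the measured members of 36 gene lists (number of members in parentheses) that were lower on day 11 (left, blue, %) or higher on day 11 (right, orange, %) at an adjusted p under 0.05, 24 h after PGF2α. Dashed lines are the shares over all 9155 genes, 27.4% lower and 18.8% higher. The lists at the top of the plot hold leukocyte, lysosome and protease genes, and those at the bottom respiratory chain, progesterone and cholesterol synthesis and cell division genes.

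Genes of progesterone synthesis were lower on day 11. In that list 9 of 12 measured genes were lower and 0 higher, with a median difference of -0.63, whereas in the glands given saline 5 had been higher on day 11 and 1 lower, with a median of 0.19. HSD3B1 (Entrez Gene 281824), which converts pregnenolone to progesterone, had signals of 10.06, 11.92, 11.64, 11.63 and 11.71 in day 11 replicates 1 to 5. On day 4 the same gene stood at 13.64, 13.59, 13.52, 13.56 and 13.58. The groups did not overlap, and replicate 1 was the lowest of the day 11 arrays. The difference was -2.18 ± 0.19 (SE), or 4.55-fold lower (limma, adjusted p = 4.4e-10). STAR (281507), which carries cholesterol into mitochondria, had signals of 10.71, 12.53, 12.33, 12.35 and 12.82 on day 11 and of 12.79, 13.17, 13.22, 13.21 and 13.06 on day 4. Here the groups overlapped at 1 point: day 11 replicate 5 was just above day 4 replicate 1. The difference was -0.94 ± 0.21 (SE; adjusted p = 0.00076 by limma; exact two-sided permutation p = 0.016), and without day 11 replicate 1 it was -0.58.

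CYP11A1 (338048), the enzyme that cleaves the cholesterol side chain, differed less than HSD3B1. Its day 11 signals of 12.62 to 12.89 and its day 4 signals of 13.24 to 13.49 did not overlap, and the difference was -0.64 ± 0.07 (SE; limma, adjusted p = 2.7e-08). FDX1, which passes electrons to that enzyme, was lower by a difference of -0.58, and CYB5A, an electron carrier of steroid enzymes, by one of -0.87. NR5A2 (541305), a nuclear receptor that switches on steroidogenic genes, had signals of 5.26, 6.37, 6.85, 6.17 and 6.03 on day 11 and of 9.27, 8.36, 8.03, 7.54 and 9.26 on day 4. The groups did not overlap, day 11 replicate 1 was again lowest, and the difference was -2.36 ± 0.28 (SE), or 5.13-fold lower. NR5A1, its relative in steroid-secreting cells, was lower at -0.70 ± 0.18 (SE) although it had been higher by 1.25 at 0 h. The other lower members were GATA6, a transcription factor, at -0.62 and TSPO, a cholesterol-binding protein of the mitochondrial membrane, at -0.63. PGR, GATA4 and PGRMC1 did not pass the test, at -0.22, -0.12 and -0.08. In whole tissue, fewer luteal cells and less of these RNAs per cell cannot be told apart, and the same holds for every cell type below.

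None of HSD3B1, STAR, CYP11A1 and NR5A2 passed the test as lower on day 11 in the glands given saline, where STAR and CYP11A1 were higher by 0.73 and 0.24. For HSD3B1 the 0 h means were 13.71 on day 11 and 13.56 on day 4, and the difference at 24 h departed from that at 0 h by -2.33 ± 0.27 (SE; interaction, limma adjusted p = 2.4e-07). The corresponding interactions were -1.68 ± 0.30 (SE) for STAR and -1.95 ± 0.40 (SE) for NR5A2. CYP11A1 had one of -0.88 ± 0.10 (SE). All 4 passed the interaction test.

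**Figure D2:**
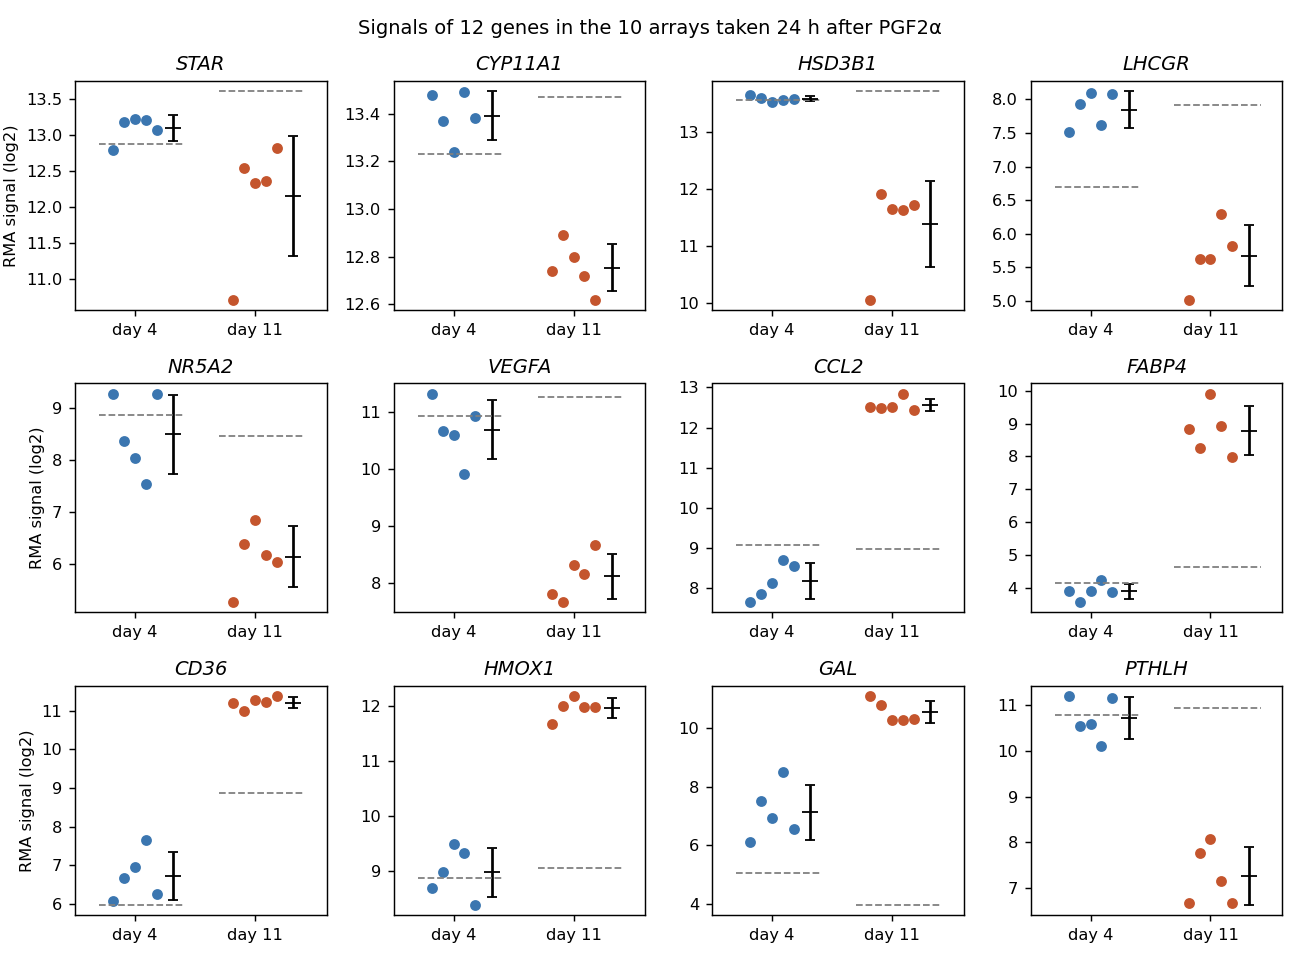
RMA signals (log2) of 12 genes in each of the 10 arrays taken 24 h after PGF2α, day 4 in blue and day 11 in orange, with the mean and SD of each day in black and the mean of the same day at 0 h as a dashed grey line. STAR is the gene of the 12 in which the days overlap, by 1 array of each day. Day 11 means lie below the 0 h line of that day for the steroid genes, LHCGR, VEGFA and PTHLH, and above it for CCL2, FABP4, CD36, HMOX1 and GAL.

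In the androgen and estrogen synthesis list 4 of 8 measured members were lower and 0 higher, with a median of -0.63. The 4 were CYP17A1, CYP19A1, HSD17B8 and HSD11B1, and not all of them make androgens or estrogens. CYP17A1 (281739), which makes androgens, had signals of 5.97 to 7.78 on day 11 and of 8.54 to 9.46 on day 4, a difference of -2.26 ± 0.43 (SE; limma, adjusted p = 0.00012). At 0 h its means were 6.36 and 5.67. CYP19A1 (281740), aromatase, had a low signal on day 11, 4.23 ± 0.42 (SD, n = 5), against 6.61 ± 0.30 (SD, n = 5). It has 4 probe sets, of which 1 was called, and their mean differed by -0.55. HSD17B8, a steroid dehydrogenase, was lower at -0.91. HSD11B1, which activates glucocorticoids, was lower at -1.0, a call lost without day 11 replicate 1 (-0.83, limma adjusted p = 0.063).

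The receptors through which the gland is supported or made to regress differed in both directions, 5 of 14 higher and 3 lower, and 6 of the 14 had low signals on both days. LHCGR (281900), the receptor for luteinizing hormone, had signals of 5.02, 5.62, 5.62, 6.29 and 5.82 on day 11 and of 7.51, 7.93, 8.10, 7.62 and 8.08 on day 4. No value overlapped, and the difference was -2.18 ± 0.29 (SE), or 4.52-fold lower (limma, adjusted p = 5.6e-07). At 0 h the order was the reverse, with means of 7.92 on day 11 and 6.70 on day 4, and the interaction was -3.39 ± 0.41 (SE; limma, adjusted p = 4e-07). PTGFR (282020), the PGF2α receptor, was at 10.07 to 10.85 on day 11 and at 11.16 to 11.88 on day 4. This made a difference of -1.0 ± 0.14 (SE), where the 0 h difference had been 0.01. PRLR (281422), the prolactin receptor, was the opposite case: at 6.84 ± 0.29 (SD, n = 5) against 3.95 ± 0.24 (SD, n = 5) it was higher by 2.90, and its 0 h difference of 3.42 did not depart from that (interaction -0.53, limma adjusted p = 0.14). PTGER4, a receptor for prostaglandin E2, was higher by 1.81 and INSR, the insulin receptor, by 1.05. ADIPOR2, an adiponectin receptor, was lower at -1.09 and had been lower at 0 h too, at -0.88.

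Cholesterol synthesis was lower on day 11 almost throughout the pathway. In the cholesterol synthesis and uptake list 17 of 21 genes were lower and 2 higher, with a median of -1.53. At 0 h, 15 had been higher and 0 lower, with a median of 0.61, and 18 of the 21 passed the interaction test downward, against 15% of all genes. EBP (515569), a sterol isomerase, had signals of 7.97, 8.52, 7.73, 8.52 and 8.71 on day 11 and of 9.89, 10.44, 10.30, 10.80 and 10.12 on day 4. The groups did not overlap, and the difference was -2.02 ± 0.19 (SE), or 4.05-fold lower (limma, adjusted p = 1.6e-09). MVK, mevalonate kinase, differed by -1.92 and DHCR7, which makes cholesterol in the last step of the pathway, by -1.86. INSIG1, a sterol sensor of the endoplasmic reticulum, differed by -1.83. The mean signal of the list was lowest in day 11 replicates 1 and 3 (9.19 and 9.38), against 9.78 to 10.07 in the other day 11 arrays and 10.56 to 11.03 on day 4. The 2 higher members were NPC1 and NPC2, which release cholesterol from lysosomes, by 0.41 and 0.73. SCARB1, the receptor for high-density lipoprotein, had a difference of 0.01 (limma, adjusted p = 0.96), after a 0 h difference of 0.68.

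Genes that bind, take up and store fatty acids and cholesterol esters were higher. In the cholesterol efflux and ester storage list, 9 of 15 were higher and 1 lower, with a median of 0.55. Much of this was already present at 0 h, when 9 were higher and 2 lower, with a median of 0.40. The interaction test was passed by 5 upward and 3 downward. CD36 (281052), a scavenger receptor and fatty acid transporter, had signals of 11.19, 11.00, 11.27, 11.22 and 11.37 on day 11 and of 6.07, 6.67, 6.94, 7.65 and 6.24 on day 4. This made it 22.6-fold higher, by 4.50 ± 0.34 (SE), and it had been higher by 2.90 at 0 h. FABP4 (281759), a fatty acid carrier of adipocytes, macrophages and capillary cells, had signals of 7.99 to 9.90 on day 11. On day 4 it was low, at 3.58 to 4.24, and the difference of 4.88 ± 0.32 (SE) was 3.09 when its 2 probe sets were averaged. FABP5 (281760), its relative, was at 12.42 to 12.69 against 9.51 to 10.14, higher by 2.78. At 0 h neither carrier differed beyond the threshold (0.50 and 0.27). APOE, which exports cholesterol from cells, was higher by 1.99 and PLIN2, which coats lipid droplets, by 1.21. The lower member was LIPE, hormone-sensitive lipase, at -0.55.

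The RNAs of the respiratory chain were lower nearly without exception. Of 39 measured subunits 37 were lower and 0 higher, with a median of -0.66, and 34 of them passed the interaction test downward. At 0 h 13 had been lower and 3 higher, with a median of -0.16. NDUFS3 (287327), a core subunit of complex I, was at 9.42, 9.13, 9.57, 9.51 and 9.44 on day 11 and at 11.04, 10.79, 10.75, 10.60 and 10.83 on day 4, a difference of -1.39 ± 0.09 (SE). Only 1 of its 2 probe sets was called. NDUFS7 and NDUFS8 of the same complex differed by -1.22 and -1.12, UQCRB of complex III by -1.19. SDHA of complex II and COX6C of complex IV did not pass the test, at -0.18 and -0.10. The mean signal of the list was 10.77 to 10.83 in the day 11 arrays and 11.39 to 11.57 in the day 4 arrays. The cytosolic ribosome differed less: 27 of 52 protein subunits were lower and 0 higher, with a median of -0.16, and 0 passed the interaction test. Among them RPS28 differed by -0.41 and RPSA by -0.40. Under quantile normalization 18 of the 52 were lower, with a median of -0.11, and leaving out 1 array gave 21 to 26 lower.

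**Figure D3:**
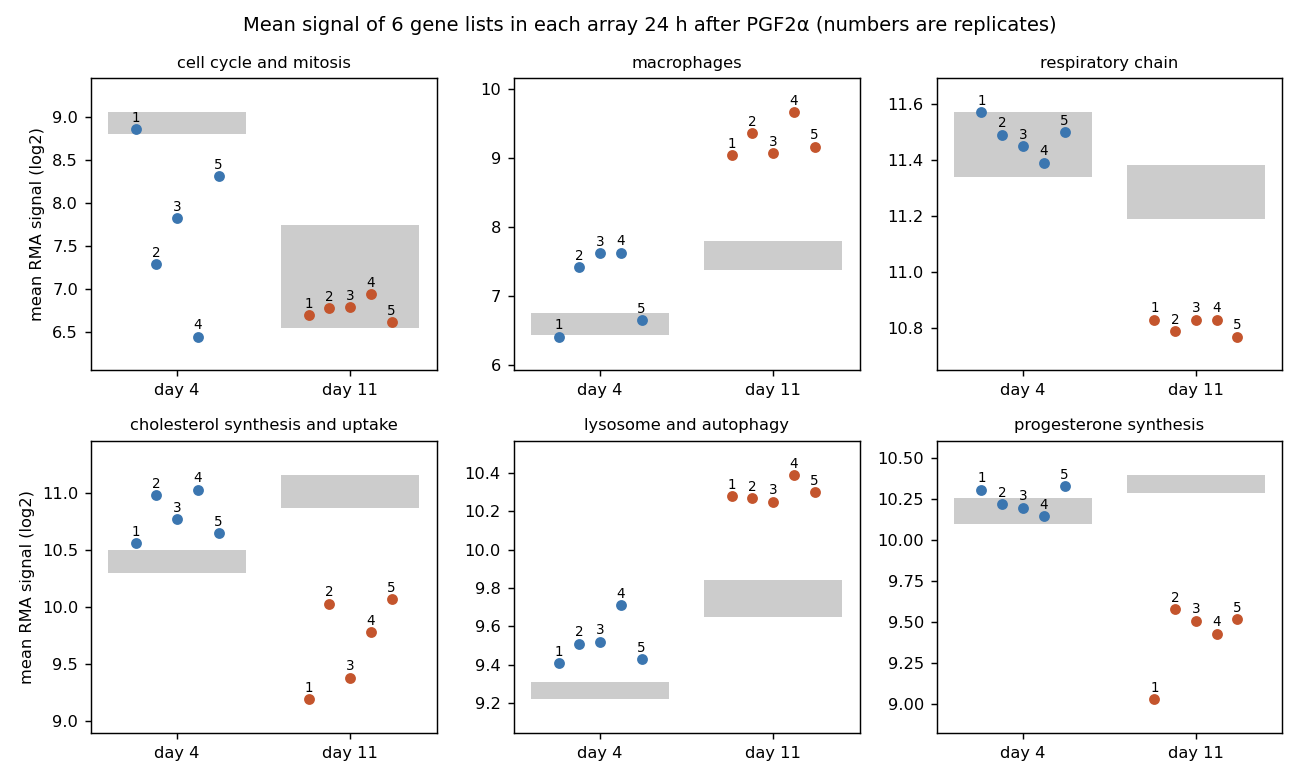
Mean RMA signal (log2) over the measured members of 6 gene lists in each of the 10 arrays at 24 h, with the replicate number above each point (day 4 in blue, day 11 in orange). Grey bands span the lowest and highest 0 h array of the same day. The days separate in 5 of the 6 lists, and in the cell cycle list day 4 runs from 6.45 in replicate 4 to 8.86 in replicate 1, around the day 11 values of 6.62 to 6.94.

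Several signals that attract leukocytes were higher on day 11. Of 38 measured chemokine and cytokine genes 16 were higher, 2 lower and 20 not called, with a median of 0.47. At 0 h 4 were higher and 5 lower, and 13 passed the interaction test upward. CCL2 (281043), which attracts monocytes, had signals of 12.52, 12.48, 12.52, 12.84 and 12.45 on day 11 and of 7.65, 7.85, 8.12, 8.71 and 8.54 on day 4. Each day 11 value was above 12 and each day 4 value below 9, and the difference was 4.39 ± 0.32 (SE), or 20.9-fold higher (limma, adjusted p = 1.7e-11). At 0 h it had been -0.08. The probe set is of a type whose probes can match more than 1 transcript, so part of this signal may come from related chemokines. CCL8 (281044), a relative of CCL2, was at 8.09 to 9.67 against 5.34 to 6.14, higher by 3.02.

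CXCL8 (280828), which attracts neutrophils, had signals of 8.13, 7.29, 7.30, 8.43 and 7.85 on day 11 and of 5.50, 4.15, 5.62, 5.27 and 4.50 on day 4, a difference of 2.80 ± 0.58 (SE; limma, adjusted p = 0.00034). CXCL2, another neutrophil chemokine, was higher by 3.23, with a spread of 4.51 to 8.27 on day 11 and low signals of 2.33 to 3.39 on day 4. IL1RN (281860), which blocks the interleukin 1 receptor, was higher by 3.48, at 9.42 to 9.99 against 5.76 to 7.13. IL1B itself, at 5.64 ± 0.56 (SD, n = 5) against 4.61 ± 0.34 (SD, n = 5), had a difference of 1.03 that did not pass (limma, adjusted p = 0.16; exact two-sided permutation p = 0.016). A fit to the 10 arrays alone called it (limma, adjusted p = 0.0066). The lower members were CXCL12, which holds leukocytes and stem cells in tissues, at -1.61 and MIF, a macrophage cytokine, at -1.10. Both had been lower at 0 h, at -1.51 and -1.46.

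Markers of macrophages were higher with 16 of 18 called and 0 lower, a median of 2.35. At 0 h 9 were higher, with a median of 0.89, and 10 passed the interaction test upward. The mean signal of the list was 9.04 to 9.67 in the day 11 arrays. On day 4 it was 7.42 to 7.63 in replicates 2, 3 and 4 and 6.41 and 6.65 in replicates 1 and 5, the range of the day 4 glands given saline (6.43 to 6.75) or just below it. CD14 (281048), a receptor for bacterial lipopolysaccharide, had signals of 11.04, 10.79, 10.42, 11.59 and 10.83 on day 11 and of 7.61, 8.38, 8.50, 8.84 and 8.0 on day 4. It was higher by 2.67 ± 0.26 (SE), and its interaction of 2.23 passed the test. MSR1, a scavenger receptor, was higher by 2.72 (1.79 as the mean of its probe sets) and FCGR2B, an inhibitory antibody receptor, by 2.74. GPNMB (509600), a membrane protein of lipid-loaded macrophages, was higher by 3.91 and had been by 2.53 at 0 h. By contrast the complement chains C1QA, C1QB and C1QC were higher by 2.17, 2.48 and 2.42 at 24 h and by 2.14, 2.49 and 2.42 in the saline glands. FCGR3A, an antibody receptor, and ITGAM, an integrin of myeloid cells with low signals on both days, did not pass the test.

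T and NK cell markers were higher too, 14 of 20 and 0 lower with a median of 0.99. At 0 h 7 were higher, and 3 of the 20 passed the interaction test upward, a share near that of all genes (14.8%). NKG7 (513006), a granule protein of killer cells, had signals of 7.19 to 8.23 on day 11 and of 4.24 to 5.39 on day 4, higher by 2.68 (1.63 as the mean of its probe sets). CD2 and CD3G, T cell surface proteins, were higher by 1.57 (0.95 as the mean of its probe sets) and 1.54, CD3G from a low signal of 3.92. Of 7 B and plasma cell markers 3 were higher: BLNK, a signalling adaptor, by 2.14, MS4A1 by 0.67 and CD79A by 0.42, all from low signals. Of 9 neutrophil and eosinophil markers 2 were higher, a share near that of all genes (18.8%). They were S100A12 (282467), a calcium-binding protein of neutrophils and monocytes, and S100A9, its relative. S100A12 was at 10.53 to 12.15 against 5.63 to 8.20, higher by 4.26 ± 0.46 (SE), and had been lower at 0 h, at -1.26. S100A9 was higher by 0.82, a call lost in 5 of the 10 fits that left out 1 array (limma, adjusted p up to 0.15). The granule proteins ELANE, MPO and CAMP had low signals and differences of 0.03, 0.05 and 0.03. Of 7 red cell and platelet genes 2 were higher. PF4, a platelet and monocyte chemokine, was higher by 2.33, and HBB, a globin, by 0.52 at the edge of the threshold (limma, adjusted p = 0.05; exact two-sided permutation p = 0.087). As the mean of its probe sets HBB differed by 0.11. HBA, ALAS2 and SLC4A1, the other red cell genes named here, had low signals and differences of 0.02, -0.05 and 0.06.

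In the MHC class II list, which presents antigen to T cells, 7 of 11 genes were higher and 0 lower at 24 h, with a median of 0.98. At 0 h 5 were higher and 1 lower, with a median of 0.86. The list mean was highest in day 11 replicate 4 (8.93, against 7.31 to 8.15 in the other day 11 arrays and 6.68 to 7.57 on day 4), and without that array 5 were higher and the median was 0.43. The median was also 0.63 without day 11 replicate 3 or day 4 replicate 4 and 0.61 without day 4 replicate 5. BOLA-DRA and BOLA-DRB3, chains of the class II molecule, were higher by 1.51 and 1.52 at 24 h and by 1.35 and 1.13 at 0 h. Probe sets of this family can share sequence, so the signals of single chains are uncertain. CTSS, a protease that prepares antigen in lysosomes, was higher by 1.55. Of 23 complement and acute phase genes 14 were higher and 1 lower at 24 h, against 11 and 2 at 0 h. The higher ones included TF, transferrin, by 2.23, CP, the copper carrier ceruloplasmin, by 1.99 and C7 by 1.72. The lower one was C6, at -1.02 to a low signal. The part that the macrophage markers described above play in these lists was not tested.

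Of 19 markers of endothelial cells 5 were higher and 3 lower at 24 h, with a median of 0.17, a share of calls near that of all genes (46.2%). At 0 h 11 were higher and 3 lower, with a median of 0.48, against 17.9% and 26.5% of all genes. The interaction test was passed by 3 upward and 4 downward, shares near those of all genes (14.8% and 15%). CLDN5, a tight junction protein of endothelium, was higher by 1.29. APLNR, the apelin receptor, was lower at -1.26 (-0.83 as the mean of its probe sets) after having been higher by 0.97 at 0 h. FLT1, a receptor for vascular endothelial growth factor, was lower at -0.52 after 1.37 at 0 h, and only 1 of its 3 probe sets was called. PLVAP, a protein of capillary pores, was lower at -1.16 (-0.67 as the mean of its probe sets) and had been lower at -2.42 at 0 h. PECAM1, CDH5 and TEK, found throughout endothelium, differed by 0.27, 0.43 and 0.20, of which that of CDH5 passed. TEK lay at 7.97 ± 0.18 (SD, n = 5) on day 4, against 8.17 ± 0.14 (SD, n = 5) on day 11 (exact two-sided permutation p = 0.1).

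Among 15 angiogenic factors and inhibitors 5 were higher and 2 lower, with a median of 0.13, again a share near that of all genes. VEGFA (281572), the main capillary growth factor of the gland, had signals of 7.81, 7.67, 8.31, 8.16 and 8.66 on day 11 and of 11.31, 10.66, 10.60, 9.91 and 10.93 on day 4. No value overlapped, and it was 5.89-fold lower at -2.56 ± 0.18 (SE; limma, adjusted p = 1.1e-11). The 0 h difference had been 0.33, and the interaction was -2.89 ± 0.26 (SE). VEGFC, its relative for lymphatic vessels, was lower at -1.16. THBS2 (338092), thrombospondin 2, an inhibitor of angiogenesis, was at 11.91 to 12.21 against 9.91 to 10.41, higher by 2.00 ± 0.14 (SE) where the 0 h difference had been -0.32. NRP2, a co-receptor of vascular growth factors, was higher by 1.8. For THBS1, thrombospondin 1, the probe set with the highest signal was higher by 0.80, but of the other 5 probe sets 1 agreed and 3 were called in the opposite direction, so its direction is not settled. FGF2, an angiogenic growth factor, was near the low limit on both days (4.19 and 4.59) and its difference of -0.40 did not pass (limma, adjusted p = 0.43). EDN1 (281137), endothelin 1, a vasoconstrictor made by endothelium, had signals of 8.17, 6.78, 6.90, 7.21 and 7.70 on day 11 and of 5.39, 5.32, 5.91, 5.60 and 5.05 on day 4. It was higher by 1.90 ± 0.30 (SE), against -0.14 at 0 h.

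Proteases of the matrix and of the lysosome were higher. Of 21 matrix protease and inhibitor genes 15 were higher and 1 lower, with a median of 0.78, against a median of -0.10 at 0 h, when 3 were higher and 7 lower. MMP1 (281308), a collagenase, was at 8.61, 7.06, 6.11, 7.15 and 8.06 on day 11 and at a low 3.65 to 4.11 on day 4, higher by 3.43 ± 0.38 (SE). MMP19, a broad matrix protease, was higher by 1.73 (0.94 as the mean of its probe sets) after having been lower at -1.20 at 0 h. CTSK, a collagen-cleaving cathepsin, was higher by 1.45. The inhibitor TIMP3 was higher with them, by 2.55 ± 0.14 (SE), and had been by 1.49 at 0 h. LOX, which cross-links collagen, was the lower one, at -1.37. Of 16 fibroblast and collagen genes 3 were higher and 4 lower, shares near those of all genes (18.8% and 27.4%). FAP, a protease of activated fibroblasts, was higher by 1.24 and had been lower at -1.49 at 0 h.

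The lysosome and autophagy list had 28 of 35 members higher and 0 lower, with a median of 0.62. At 0 h 19 were already higher and 2 lower, with a median of 0.33. The interaction test was passed by 10 upward and 2 downward. The list mean was 10.25 to 10.39 on day 11, against 9.41 to 9.71 on day 4. CTSB (281105), a cathepsin, was at 12.78 to 13.11 against 10.79 to 11.43, higher by 1.87 ± 0.13 (SE) with 5 other probe sets in the same direction. CTSZ, another cathepsin, was higher by 1.73 after 0.14 at 0 h. CTSF and MAN2B1, a cathepsin and a mannosidase, were higher by 2.29 and 1.83, but their 0 h differences were larger still, 3.32 and 2.25. Only that of CTSF passed the interaction test. Macrophages are rich in lysosomes, and the part of their markers in this list was not tested.

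Stress and death genes showed single large differences within mixed lists. HMOX1 (513221), which breaks down heme, had signals of 11.67 to 12.18 on day 11 and of 8.39 to 9.49 on day 4, 7.93-fold higher. It had not differed at 0 h (0.19, limma adjusted p = 0.56). MT2A, a metal-binding protein, was higher by 2.03 and had been lower at -1.61 at 0 h, and TXNRD1, which regenerates thioredoxin, was higher by 1.71. In the oxidative stress list as a whole, these 3 genes included, 8 of 27 were higher and 10 lower. Its differences ran from -1.17 to 2.99, with a median of -0.02. At 0 h 10 were higher and 10 lower. SOD3, an extracellular superoxide dismutase, was higher by 2.05 at 0 h and by 1.86 at 24 h (1.12 as the mean of its 2 probe sets). Of 18 apoptosis regulators 9 were higher and 4 lower. GADD45A, which responds to DNA damage, was higher by 2.90 from a low signal of 3.08, BCL2A1, which blocks apoptosis, by 2.08 and CDKN1A, which halts the cell cycle, by 0.97. GADD45B, a relative of GADD45A, was lower at -0.95.

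Genes of the immediate-early class were higher on day 11 a day after the injection. Of 18 measured members 11 were higher and 0 lower, with a median of 0.88. At 0 h 5 were higher and 1 lower, with a median of 0.19, and 9 passed the interaction test upward. The list mean was 8.98 to 9.28 in the day 11 arrays at 24 h. It was 7.84 to 9.24 in the day 11 glands given saline, so these ranges overlapped. ATF3 (515266), a stress-induced transcription factor, was at 10.83, 10.34, 10.06, 9.88 and 9.51 on day 11 and at 6.99, 6.61, 6.53, 7.60 and 6.61 on day 4, 9.53-fold higher. JUN and FOS, subunits of AP-1, were higher by 1.6 and 1.56, FOS with overlapping days, and ZFP36, which destabilizes cytokine RNAs, by 1.87. In the NF-kB and death receptor list 13 of 22 were higher and 2 lower. NFKBIA, the inhibitor of NF-kB, was higher by 1.61, ICAM1, a leukocyte adhesion molecule, by 1.25 and FAS, a death receptor, by 1.07. TNFAIP6, a matrix-binding protein of the ovulating follicle, was lower at -0.97 and FADD, an adaptor of death receptors, at -0.50.

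Secreted peptides differed strongly in both directions, with 5 of 12 higher and 3 lower. GAL (280799), the neuropeptide galanin, had signals of 11.10, 10.79, 10.28, 10.30 and 10.31 on day 11 and of 6.11, 7.51, 6.92, 8.51 and 6.56 on day 4. It was 10.8-fold higher, although at 0 h it had been lower at -1.07, and its interaction was 4.51 ± 0.49 (SE; limma, adjusted p = 8.6e-08). STC1 (338078), stanniocalcin 1, a calcium-regulating hormone, was at 9.03 to 9.76 against 5.25 to 6.78, higher by 3.32. INHBA (281867), a subunit of activin and inhibin, had signals of 10.98, 9.89, 9.23, 9.19 and 8.84 on day 11 and of 7.15, 6.74, 7.22, 7.41 and 6.78 on day 4, higher by 2.56. INHA, the inhibin subunit that pairs with it, was lower at -1.49. PTHLH (286767), parathyroid hormone-related peptide, was at 6.68, 7.76, 8.08, 7.16 and 6.68 on day 11 and at 11.20, 10.56, 10.59, 10.12 and 11.16 on day 4. It was 10.9-fold lower at -3.45 ± 0.24 (SE), where the 0 h difference had been 0.15. OXT, oxytocin, differed little: it was lower at -0.37 at 24 h and at -0.31 at 0 h. In day 11 replicate 1, which had the lowest STAR and HSD3B1, the signals of GAL, INHBA, ATF3 and EDN1 were the highest of that day.

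Among genes of prostaglandin metabolism 2 of 10 were higher and 4 lower. HPGD, which inactivates prostaglandins, was lower at -2.34 (-1.51 as the mean of its 2 probe sets), to a low signal of 3.36 ± 0.38 (SD, n = 5). PTGES, a prostaglandin E synthase, was lower at -1.22 and SLCO2A1, a prostaglandin transporter, at -0.67 after 1.28 at 0 h. AKR1B1, which can make PGF2α, was higher by 0.69 and PTGDS, a prostaglandin D synthase, by 1.02. PTGS2, the inducible cyclooxygenase, had low signals on both days and a difference of -0.25 (limma, adjusted p = 0.64).

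In the list of luteal protein and transporter genes 5 of 13 measured members were higher and 4 lower. Wide differences were also found in genes outside the lists, such as SLC2A5, FBXO32, DEPP1, PHGDH and SFRP2. VNN1 (526704), a pantetheinase, was at 10.23 to 11.13 on day 11 and at 4.47 to 5.85 on day 4, 54.5-fold higher, with a 0 h difference of 2.48. SLC2A5 (282868), a fructose transporter, was 31.8-fold higher from a low day 4 signal of 3.43 to 4.05, and its log2 difference of 4.99 was 2.43 as the mean of its 3 probe sets. FBXO32, a ubiquitin ligase of muscle wasting, was higher by 4.44 and DEPP1, a target of FOXO transcription factors, by 3.91. In the other direction, BCAT2 (281643), a mitochondrial transaminase of leucine and its relatives, was lower at -3.50 (-1.85 as the mean of its 2 probe sets). PHGDH, the first enzyme of serine synthesis, was lower at -3.08 and had been at -1.58 at 0 h. SFRP2, a Wnt inhibitor, was lower at -3.71 to a low signal, and had been lower at -2.0 at 0 h. RGN, a calcium-binding protein, was lower at -2.21 (-0.90 as the mean of its 2 probe sets).

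Cell division separated the days at 0 h more than at 24 h. Of 48 cell cycle genes 44 were lower on day 11 at 0 h, with a median of -2.15, and 36 were lower at 24 h, with a median of -1.01. In 26 of them the difference was smaller at 24 h by the interaction test (14.8% of all genes passed it in that direction). At 24 h the day 4 glands were unequal. The mean of the list was 8.86 in day 4 replicate 1, within the 8.81 to 9.06 of the day 4 glands given saline, and 8.32, 7.83, 7.29 and 6.45 in replicates 5, 3, 2 and 4. Day 11 arrays stood at 6.62 to 6.94, above day 4 replicate 4. Without day 4 replicate 1 the count of lower genes was 25, with 2 higher, and the median -0.71. Without day 4 replicate 4 the count was 43 and the median -1.51. CCNB1, a mitotic cyclin, had signals of 9.78, 7.16, 7.85, 5.65 and 8.79 on day 4 and of 6.13 to 6.89 on day 11. CDK1, its partner kinase, had a difference of -0.10 that did not pass, with 6.39 to 10.29 on day 4 and 8.49 to 8.71 on day 11. CCND1 (524530), a cyclin of G1 phase, followed another pattern: it was lower in each day 11 array (4.71 to 5.25 against 6.21 to 6.89), by -1.70 ± 0.16 (SE), with 0.38 at 0 h.

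The epithelial keratin KRT18 (506480) had signals of 8.14, 7.89, 9.65, 8.98 and 9.13 on day 11 and of 12.40, 12.02, 11.72, 10.74 and 11.51 on day 4. The difference of -2.92 ± 0.29 (SE) was smaller than the -5.10 of the saline glands (interaction 2.18, limma adjusted p = 0.00018). Other members of the epithelial and mesothelial list went the other way: CLDN1, a tight junction protein, was higher by 1.72, CDH1, the adhesion protein of epithelia, by 0.88 and MSLN, mesothelin, by 0.85. That of CDH1 was 0.49 as the mean of its probe sets and then missed the threshold (limma, adjusted p = 0.053). EPCAM, KRT19 and MUC1 had low signals and differences of 0.34, 0 and 0.05, of which that of EPCAM passed the test. Of 15 markers in that list 4 were higher and 2 lower, with a median of 0.05. Of 10 follicular markers 2 were higher and 3 lower, shares near those of all genes (18.8% and 27.4%).

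The day differences at 24 h were then set beside those at 0 h and 4 h, which share no arrays with them. Of the 4226 genes called at 24 h, 2386 were also called at 0 h in either direction. Over all genes 4071 were called at 0 h (44.5%), with 17.9% higher and 26.5% lower. Calls with the same sign at both times numbered 1956, which is 46.3% of the 24 h calls and 48% of the 0 h calls. A further 430 were called with opposite signs, 271 of them lower at 24 h and higher at 0 h and 159 the reverse. The remaining 1840 were not called at 0 h. Across the 9155 genes, which are not independent and were measured with the same probes, the differences at 24 h and 0 h correlated at r = 0.40, those at 24 h and 4 h at 0.51 and those at 4 h and 0 h at 0.83. At 4 h, 7537 probe sets (31.4%) and 3917 genes (42.8%) were called, with 16.1% of genes higher and 26.7% lower. Of the 24 h calls, 2118 were called with the same sign there (50.1%) and 262 with the opposite sign. A set of 1620 genes was called with 1 sign at all 3 times.

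The interaction asked directly whether the difference at 24 h departed from that at 0 h, and 5342 probe sets passed it (22.2%). Among genes 2730 passed (29.8%). Of the genes that passed and were called at 24 h, 1319 had differed by less than 0.5 at 0 h, 574 of them higher at 24 h and 745 lower. The largest higher ones were SLC2A5, FABP4, CCL2, IL1RN, MMP1 and ATF3. Among the largest lower ones were PTPRR, a tyrosine phosphatase, at -3.79, BCAT2, PTHLH, DCTPP1, a nucleotide-cleaving enzyme, at -2.75, and AQP11, a water channel, at -2.67. With opposite signs at both times, SERPINA14 (286871), a serpin of the uterus known as uterine milk protein, had signals of 11.94, 11.19, 10.58, 10.29 and 10.62 on day 11 and of 7.10, 7.31, 6.83, 9.10 and 7.78 on day 4. It was higher by 3.30 at 24 h and lower at -2.29 at 0 h. NAP1L5, a histone chaperone relative, was lower at -3.0 at 24 h (-1.49 as the mean of its 2 probe sets) and higher by 1.22 at 0 h.

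In the other direction, 1003 genes differed at 0 h and passed the interaction but lay within 0.5 of each other at 24 h, 437 that had been higher on day 11 and 566 lower. AREG, the growth factor amphiregulin, differed by -3.28 at 0 h and by -0.23 at 24 h (limma, adjusted p = 0.63), with 24 h means of 6.67 and 6.90. ALDH1A1, which makes retinoic acid, differed by 2.52 and then 0.05. LDHA, lactate dehydrogenase A, differed by -2.44 and then -0.32, a difference that passed at 24 h only without day 4 replicate 4 (-0.48, limma adjusted p = 0.016). Of its other 2 probe sets, 1 was called in each direction.

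**Figure D4:**
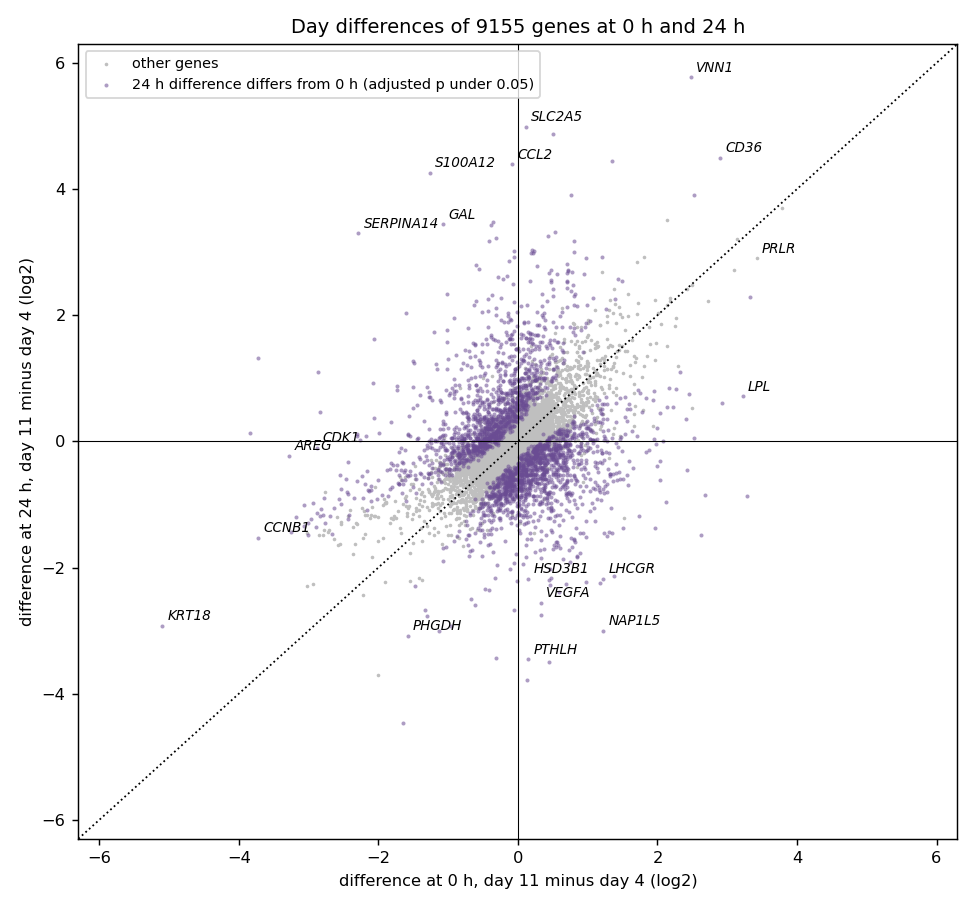
Day 11 minus day 4 differences (log2) of 9155 genes at 0 h (x axis) and 24 h (y axis), with genes whose differences depart from each other by the interaction test in purple, other genes in grey and equality as a dotted diagonal. CD36 and PRLR lie to the upper right and KRT18 to the lower left at both times. HSD3B1, VEGFA and PTHLH lie low, and CCL2 and SLC2A5 high, near a 0 h difference of 0.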

How the data were processed

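RNA of 30 corpora lutea, 1 per heifer, was measured on the Affymetrix GeneChip Bovine Genome Array, 5 arrays in each of 6 groups (day 4 or 11 of the cycle, at 0, 4 or 24 h). The deposited values are log2 signals that the authors made with RMA, per the submitters' processing notes; the version, and which arrays were normalized together, are not given in the sources used here. Values ran from 1.8 to 14.35. The labels do not say that any sample was pooled.

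All 30 arrays were fitted with limma 3.58.1 in R 4.3.3, with 6 group means and no covariate, and p values were adjusted by Benjamini-Hochberg over 24016 probe sets, after 112 control probe sets had been left out. A call is an adjusted p under 0.05. The interaction is the day difference at 24 h minus that at 0 h. SE values are those of the moderated fit. The script was tested on simulated data.

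Of the probe sets, 13292 had 1 gene symbol in the platform annotation, 86 several and 10638 none, which gave 9155 genes. Of 9162 gene identifiers 9141 were in the RefSeq gene table, and 0 symbols needed an update. Probe sets whose name ends in _s_at (CCL2, BOLA-DRB3, MVK, SERPINA14) can hold related transcripts. Sequences and genome positions were not used here.

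The comparison and the 36 gene lists (703 measured genes) were chosen with earlier results of these data known. The rule for named genes took the 15 widest non-overlapping differences in each direction, the called members with the widest differences in a list, 4 at most, a panel of 22 genes, and 6 genes for each pattern across times. Genes whose function was not sure were not named. All other members named in the text (for example FDX1, NR5A1, HSD17B8, INSR, the C1Q chains, CCNB1 and the uncalled members of a list) were chosen after their values were seen.

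No pairing by replicate number was seen between the days: arrays of the same number correlated at -0.03 to 0.05 in their deviations from the group means. With the number as a block, more probe sets were called in every comparison (counts below). A shared effect of the number over all arrays was not tested further. Alternatives changed the normalization, the filter on dim probe sets, the variance model, weights, the replicate block, the arrays fitted, the threshold, the choice of probe set and the arrays left out.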

Additional observations from a re-analysis of the deposited data

Results flagged for a closer look

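Among 116 sets of 5 values (22 genes and 36 list means in each day), 11 held an array far from the other 4, where chance marks about 1 set in 20. The sets are not independent, since STAR and HSD3B1 belong to the progesterone synthesis list, lists share genes, and the same 5 arrays of a day recur. Day 11 replicate 1 was that array in 6 of the 11, which therefore are not separate observations. Its STAR signal was 10.71, with the others at 12.33 to 12.82, and its HSD3B1 signal 10.06, with the others at 11.63 to 11.92. Its mean over progesterone synthesis genes was 9.03 (others 9.43 to 9.58) and over cholesterol efflux and ester storage genes 9.84 (others 9.91 to 9.93). It was the highest of the day for matrix proteases and inhibitors, at 9.27 (others 8.78 to 8.87), and for epithelial and mesothelial markers, at 5.39 (others 5.21 to 5.26).

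The other sets involved different arrays. CCL2 stood at 12.84 in day 11 replicate 4 (others 12.45 to 12.52). TEK stood at 8.28 in day 4 replicate 3 (others 7.84 to 7.95). The mean over angiogenic factors was 8.52 in day 11 replicate 5 (others 8.39 to 8.42), and that over hypoxia and glycolysis genes was 9.52 in day 11 replicate 3 (others 9.68 to 9.74). Epithelial and mesothelial markers averaged 5.09 in day 4 replicate 5 (others 5.27 to 5.32).

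The difference between the days was itself different at 24 h and at 0 h for 5342 probe sets, tested by the interaction in limma. Of the 22 panel genes 15 were among them. The change in the difference was negative for STAR (-1.68), CYP11A1 (-0.88), HSD3B1 (-2.33), LHCGR (-3.39), PTGFR (-1.02), NR5A2 (-1.95) and VEGFA (-2.89). It was positive for EDN1 (2.04), INHBA (2.10), GAL (4.51), KRT18 (2.18), CCL2 (4.46), CXCL8 (3.40), AREG (3.05) and ATF3 (2.82).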

How the results depend on the processing

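The count of 8342 probe sets at 24 h was 7864 to 9142 under the other normalizations, filters, weights and variance models, 8187 with the 10 arrays alone and 7501 to 8374 when 1 array was left out (0 h 7329 to 7992, 4 h 6640 to 7424, interaction 4755 to 5449). A tested minimum change of 2-fold left 435 probe sets at 24 h, 252 at 0 h, 246 at 4 h and 286 for the interaction, by the construction of that test. At an adjusted p under 0.01 the interaction kept 3422. With the replicate number as a block the counts were 8624 at 24 h, 8455 at 0 h, 8020 at 4 h and 5607 for the interaction, and 1 of 5 numbers correlated best with its own partner. Averaging the probe sets of a gene left 3 angiogenic factors, 1 mast cell marker and 1 red cell or platelet gene higher, and quantile normalization left 1 red cell or platelet gene higher; the cause was not tested. Leaving out 1 array gave 2 to 5 fibroblast genes lower (2 without day 11 replicate 2, day 11 replicate 4 or day 4 replicate 5), 1 to 3 neutrophil genes higher and 1 to 2 red cell or platelet genes higher. Of 165 genes taken by the naming rule 155 were called, and 148 of these kept the call in all 20 alternative fits. By the 2-fold test 76 of the 155 passed, and at an adjusted p under 0.01 148 did. The call was lost in at least 1 fit for HSD11B1, PDGFRA, COL6A1, S100A9, KIT, HBB and CDH1, and 0 of the called genes reversed.

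Signals near background limit the size of differences from a low level (FABP4, SLC2A5, MMP1, GADD45A, CYP19A1, HPGD). With 5 arrays per day the smallest exact two-sided permutation p is 0.0079. The labels name 1 animal per sample, so replicates are animals, but the files give no measure of luteal function. The 0 h glands had received saline and are not glands of the same animals before treatment.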

Other observations

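Growth factors of the IGF and TGF-beta families, which include the activins and bone morphogenetic proteins of the ovary, differed in both directions at 24 h. Of 29 measured members 13 were higher, 4 lower and 12 not called, with a median of 0.47. At 0 h 7 were higher and 7 lower. IGFBP1, a binding protein that restrains insulin-like growth factors, was at 6.75, 6.86, 6.42, 7.29 and 8.20 on day 11 and at 4.22, 4.15, 4.48, 5.12 and 4.68 on day 4, higher by 2.57 ± 0.35 (SE; limma, adjusted p = 9.2e-07). TGFB1 was at 8.64 to 10.28 against 7.54 to 7.83, higher by 1.65, and day 11 replicate 1 had the highest value. FSTL3, which binds activin, was lower at -1.51, and BMP2 was higher by 1.27 with overlapping days. In glycolysis and hypoxia genes 9 of 30 were higher and 13 lower, with a median of -0.29. At 0 h 4 were higher and 14 lower. The widest difference of the list at 24 h was that of VEGFA, lower at -2.56. Among the higher members NDRG1, a stress-induced protein, was at 10.30 to 10.85 against 7.98 to 8.35, higher by 2.38. PDK4, a kinase that inhibits pyruvate dehydrogenase, was higher by 1.87. PFKFB3, a regulator of glycolysis, was higher by 2.49 (1.03 as the mean of its probe sets).

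Interferon-stimulated genes were counted at 0 h and at both times after PGF2α. At 0 h 5 of 23 were higher on day 11 and 1 lower, with a median of 0.54. At 4 h 21 of 23 were higher on day 11 and 0 lower, with a median of 1.23, while 16.1% of all genes were higher there. At 24 h 5 were higher and 1 lower, with a median of 0.42, which was 0.21 without day 11 replicate 3 and 0.29 without day 4 replicate 5. The share higher at 24 h, 21.7%, was near that of all genes (18.8%). Between 0 h and 24 h, 0 passed the interaction test upward and 2 downward. The change from 4 h to 24 h was not tested. RSAD2, an antiviral enzyme, was higher by 1.86 at 24 h, with 5.91 to 8.21 on day 11 and 4.55 to 5.42 on day 4, and ISG15, a ubiquitin-like protein, had a difference of 0.29 that did not pass (limma, adjusted p = 0.74). PSMB9, a subunit of the immunoproteasome, was lower at -1.20 and had been higher by 0.77 at 0 h. Of 26 chaperones 3 were higher and 10 lower, with a median of -0.27. Day 4 replicate 1 stood apart, at a list mean of 10.95 against 10.35 to 10.54 in the other day 4 arrays, and without it 4 were higher and 9 lower with a median of -0.15. HSPE1, a mitochondrial chaperone, was at 11.21 to 11.49 against 11.96 to 12.23, lower at -0.76 where it had been higher by 0.31 at 0 h.

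Of 12 smooth muscle and pericyte markers 2 were higher and 3 lower, shares near those of all genes (18.8% and 27.4%). TPM2, a tropomyosin, was at 7.35 to 8.34 on day 11 and at 9.93 to 10.53 on day 4, lower at -2.29, and had been lower at -1.48 at 0 h. RGS5, a marker of pericytes, was higher by 0.71 and by 1.14 at 0 h. Of 4 mast cell markers 2 were higher, FCER1A by 1.14 and KIT by 0.65, the latter by 0.30 as the mean of its probe sets.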
